A study of Bos taurus with 16 samples.

Results

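Endometrial DNA methylation at the time of breeding was compared between postpartum dairy cows on the control diet whose insemination resulted in pregnancy (CON_P) and those whose insemination did not (CON_noP). The comparison used 8 of the 16 reduced representation bisulfite sequencing (RRBS) libraries of the study, 4 in each group, chosen by the diet and outcome in their labels. Multiparous Holstein-Friesian cows of both groups received the control diet without added rumen-protected methionine (RPM), showed heat and were inseminated between days 50 and 64 postpartum, and gave endometrial cells by cytobrush 4 to 8 h after insemination. The other 8 libraries came from cows that received RPM from day 12 postpartum (MET_P and MET_noP). They share no library with the control diet groups and are cited here only for contrast. The group of a cow was known only after sampling, since pregnancy was diagnosed later. The study isolated DNA from 8 CON_P and 12 CON_noP samples, and 4 libraries represented each group. The study calls the libraries of a group biological replicates, but how cows map to libraries is not clear from the sources used here, so the spread between libraries may not be the spread between single cows.

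In mammals, DNA methylation sits mostly on the cytosine of CpG dinucleotides. Most CpGs outside CpG-dense stretches carry the mark in nearly every cell, whereas CpG-dense promoters are usually free of it. An intermediate level arises when the cells, or the parental alleles, of a sample differ from each other. The lining of the uterus holds luminal and glandular epithelium, stroma and leukocytes, and it responds to ovarian steroids, which change around oestrus, and makes prostaglandins that act on the ovary and on the uterine wall itself. A cytobrush mainly removes superficial cells. In such a mixed sample, a changed share of a cell type and a changed methylation level within that type cannot be told apart.

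The deposited percentages covered 199395 cytosine positions (ARS-UCD1.2), each with a value in all libraries. Of these, 189036 (94.8%) were on the 29 autosomes and are described here, and a gene was named at 121988 of them (64.5%). The values ran from 1% to 100%. Positions with a value of zero had been discarded by the authors, and this filter removed the CpGs that are unmethylated in any library. Why the lowest value is 1% is not stated. The table holds no read counts, so the depth behind a value is unknown and no counting interval can be given. By the study's report, CON_P libraries had fewer reads on average than CON_noP libraries. The share of autosomal sites at exactly 100% lay between 8.42% and 19.1% over the 8 libraries, and the ranges of the groups overlapped (9.03% to 19.1% in CON_P and 8.42% to 16.7% in CON_noP). Libraries are numbered 1 to 4 within a group in the order of their library numbers. CON_P and CON_noP libraries with the same number stand in the same run of consecutive library numbers. The sources used here do not say what such a run shares, so no pairing is read from these numbers.

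The libraries did not separate by outcome when all autosomal sites were used. Pearson correlations between libraries, taken across sites, lay between 0.922 and 0.963. The closest library was one of the same group for 3 of the 8 libraries, and for 0 of the 4 CON_P libraries. The first principal component carried 23.4% of the variance, with CON_P replicates 1 and 3 at -0.544 and -0.445, CON_P replicate 4 at 0.556 and CON_noP replicate 1 at 0.415. The CON_P libraries thus lay at both ends of this axis.

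Mean autosomal methylation was 66.2%, 65.6%, 63.5% and 63.5% in CON_P replicates 1 to 4 and 64.5%, 62.7%, 64.5% and 63.4% in CON_noP replicates 1 to 4. CON_P replicates 1 and 2 were above every CON_noP library, whereas CON_P replicates 3 and 4 lay within the range of CON_noP. The group means differed by 0.925 percentage points (two-sided exact permutation test over the libraries, p = 0.286). All group values are given as mean ± SD over n = 4 libraries. With 4 libraries against 4, the smallest two-sided exact p is 0.0286. Without CON_P replicate 1 the difference was 0.41 percentage points, and without CON_noP replicate 2 it was 0.556.

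The difference was uneven over methylation levels and was largest in value at intermediate levels, where the spread between libraries was largest too. Sites were sorted into 5 classes by their mean over the 8 libraries, with limits at 20%, 40%, 60% and 80%. At the 23066 sites of 20% to 40%, the class mean was 37.5%, 32.3%, 29.1% and 24.8% in CON_P replicates 1 to 4 and 28.3%, 25.8%, 30.3% and 26.5% in CON_noP replicates 1 to 4. CON_P replicate 1 was the highest and CON_P replicate 4 the lowest of all 8 libraries, so that CON_P spanned the whole range of CON_noP. The group means were 30.9% ± 5.38 and 27.7% ± 2.03, a difference of 3.22 percentage points (exact p = 0.343). This value was 1.01 percentage points without CON_P replicate 1 and 5.27 without CON_P replicate 4.

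At the 16732 sites of 40% to 60%, CON_P had 51.0% ± 4.07 and CON_noP 48.8% ± 2.26, a difference of 2.19 percentage points (exact p = 0.4), which was 0.451 without CON_P replicate 1 and 3.38 without CON_P replicate 4. The classes at either end differed less. The 93323 sites of 80% to 100%, 49.4% of the autosomal sites, had 93.3% ± 0.627 in CON_P and 93.1% ± 0.465 in CON_noP. That difference of 0.156 percentage points turned to -0.0607 without CON_P replicate 2. The 34065 sites under 20% differed by 0.824 percentage points and the 21850 sites of 60% to 80% by 0.982, the latter by 0.359 without CON_P replicate 1 and by 0.0592 without CON_noP replicate 2. Adjusted over the 44 classes compared (by level, gene, density, position and chromosome), the exact p was 0.46 or more in every class.

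**Figure D1:**
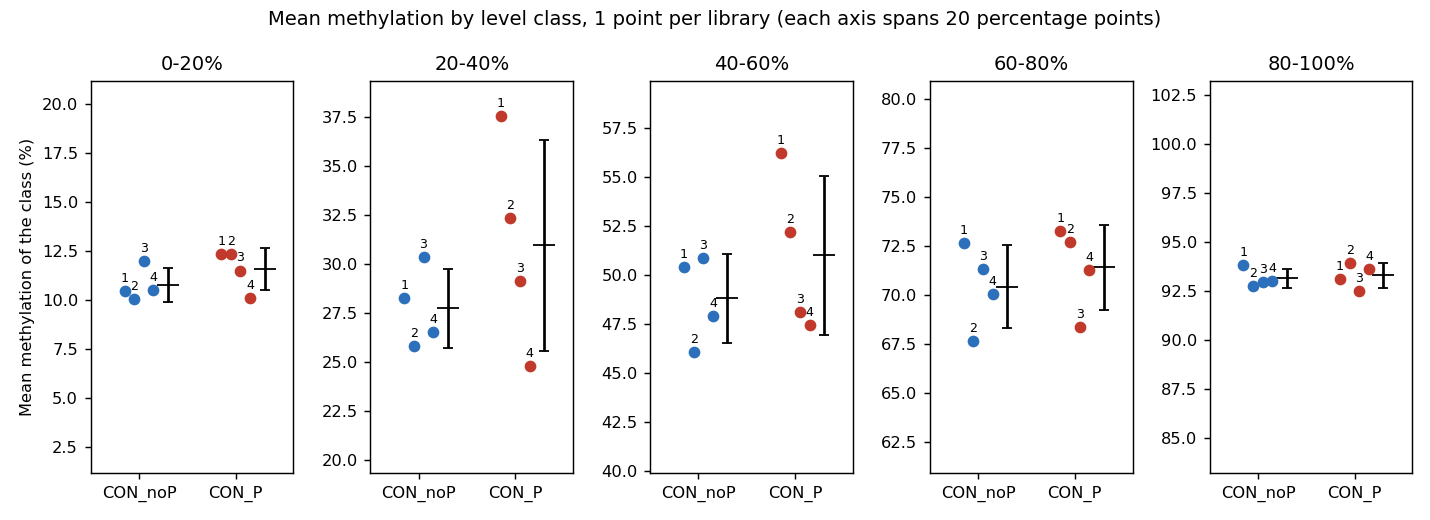
Mean methylation in percent (vertical axis, 20 percentage points in each panel) of the autosomal sites in 5 level classes, with 1 numbered point per library, CON_noP in blue and CON_P in red, and the mean ± SD of each group in black. In the class of 20% to 40% the CON_P libraries run from 24.8% to 37.5% and enclose the CON_noP libraries (25.8% to 30.3%).

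Counted by site, 55.5% of the autosomal sites had a higher mean in CON_P, and the share was 53.1% to 58.0% with any library left out. It was 67.4% at sites of 20% to 40%, 60.8% at 40% to 60%, 56.6% under 20%, 54.6% at 60% to 80% and 51.3% at 80% to 100%. The sites of a library are not independent, so these shares carry no test. Without CON_P replicate 1, the share at 20% to 40% was 55.2%.

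Between cows on RPM, the corresponding differences (MET_P minus MET_noP) were -1.96 percentage points at 20% to 40%, -0.503 at 40% to 60% and 0.303 at 80% to 100%. The outcome difference on RPM minus that on the control diet was -5.17 percentage points at 20% to 40%, and this was within the spread of the libraries (outcome labels permuted within diets, exact p = 0.198, adjusted p = 0.642 over 6 values). Over all autosomal sites it was -0.986 percentage points (same test, exact p = 0.343).

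The CON_P libraries were less alike than the CON_noP libraries in value. Each library was set against the median of the other 7 at every autosomal site, and the mean absolute deviation was 6.89, 6.94, 7.21 and 6.39 percentage points in CON_P and 6.46, 6.56, 5.48 and 5.30 in CON_noP. CON_noP replicates 3 and 4 were the closest to the rest, and CON_P replicate 4 fell among the CON_noP values. The group means were 6.86 ± 0.342 and 5.95 ± 0.652 percentage points, and the difference of 0.909 did not reach the threshold (exact p = 0.0857). Without CON_noP replicate 1 or without CON_noP replicate 2 the difference was 1.14 percentage points after the deviations were recomputed, with an exact permutation p of 0.0286, the smallest that 4 against 3 libraries can give. At single sites, the SD between libraries was larger in CON_P at 58.2% of the autosomal sites and at 69.0% of those of 20% to 40%. The median SD in that class was 11.8 percentage points in CON_P and 8.47 in CON_noP. The study isolated DNA from fewer CON_P than CON_noP samples and reported fewer reads per library on average in CON_P. Whether either bears on this spread was not tested.

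Over 14 epithelial marker genes with at least 2 sites, mean methylation was 39.6%, 33.9%, 33.3% and 27.7% in CON_P replicates 1 to 4 and 30.4%, 31.9%, 35.7% and 30.8% in CON_noP replicates 1 to 4. CON_P replicate 1 was the highest and CON_P replicate 4 the lowest, as in the class of 20% to 40%. MUC1 and ELF3 were picked out of the 14 after the values were seen and do not stand for the list. Over the 14, the difference CON_P minus CON_noP ran from -3.14 to 11.7 percentage points. MUC1, a mucin of the apical epithelial surface, ran from 52.5% in CON_P replicate 1 over 41.6% and 37.5% to 17.5% in CON_P replicate 4, against 16.7% to 33.6% in CON_noP. ELF3, an epithelial transcription factor, had 53.4%, 27.97%, 31.3% and 13.8% in CON_P and 20.9%, 21.1%, 31.7% and 21.4% in CON_noP. In both genes the groups overlapped. Over 23 leukocyte marker genes the library means were 66.1%, 62.7%, 58.2% and 61.2% in CON_P and 60.8% to 62.7% in CON_noP, and over 13 stromal marker genes they were 47.6% to 48.9% and 47.2% to 49.8%. Of the epithelial markers 7 were higher and 7 lower in CON_P, of the leukocyte markers 12 and 11, and of the stromal markers 5 and 8. Without CON_P replicate 1, 5 of the 14 epithelial markers were higher, and the median over them was -0.557 percentage points, against 0.245 with all libraries. Of the 23 leukocyte markers, 2 (8.70%) had an unadjusted limma p under 0.05, beside 3.95% of all genes. LCP2 and CD6, a signalling adaptor and a surface receptor of T cells, differed by -6.17 and -2.70 percentage points at an unadjusted limma p of 0.0215 and 0.0213 (adjusted p = 0.999 for each). These are methylation levels of marker genes and not counts of cells, and the part of cell composition in the differences between outcomes was not tested.

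By position, sites with a named gene had 67.5% ± 1.33 in CON_P and 66.7% ± 0.959 in CON_noP, and sites without one 59.6% ± 1.66 and 58.5% ± 0.836. The differences were 0.828 and 1.10 percentage points (exact p = 0.371 and 0.343). Site density, the number of measured sites within 500 bp including the site itself, went along with the size of the difference. It was 0.437 percentage points at the 12223 sites without a neighbour, 0.766 at the 81254 sites with a count of 2 to 5, 1.01 at the 80487 sites with 6 to 20 and 1.73 at the 15072 sites with over 20. In the densest class the libraries read 56.1%, 54.7%, 52.2% and 52.7% in CON_P and 54.1%, 49.0%, 54.0% and 51.7% in CON_noP, and the groups overlapped (exact p = 0.314). Its difference was 1.21 percentage points when 4 CpG islands singled out by the study on chromosomes 2, 18, 21 and 27 were left out, 0.997 without CON_P replicate 1 and 0.649 without CON_noP replicate 2. The same 4 density classes differed by 0.368, -0.041, -0.192 and 0.19 percentage points between MET_P and MET_noP.

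The difference was positive on 29 of 29 autosomes, from 0.533 percentage points on chromosome 1 to 2.29 on chromosome 27, with a median of 0.88. The chromosomes share the libraries and are not independent observations of the outcome. Chromosome 27 had the lowest exact p, 0.114 (exact permutation test), and its difference was 0.717 percentage points without the 4 islands. When medians of sites replaced means, chromosomes 1 and 12 turned to -0.205 and -0.0782 percentage points. The first 5 Mb, the last 5 Mb and the remainder of the chromosomes differed by 0.764, 1.02 and 0.888 percentage points.

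**Figure D2:**
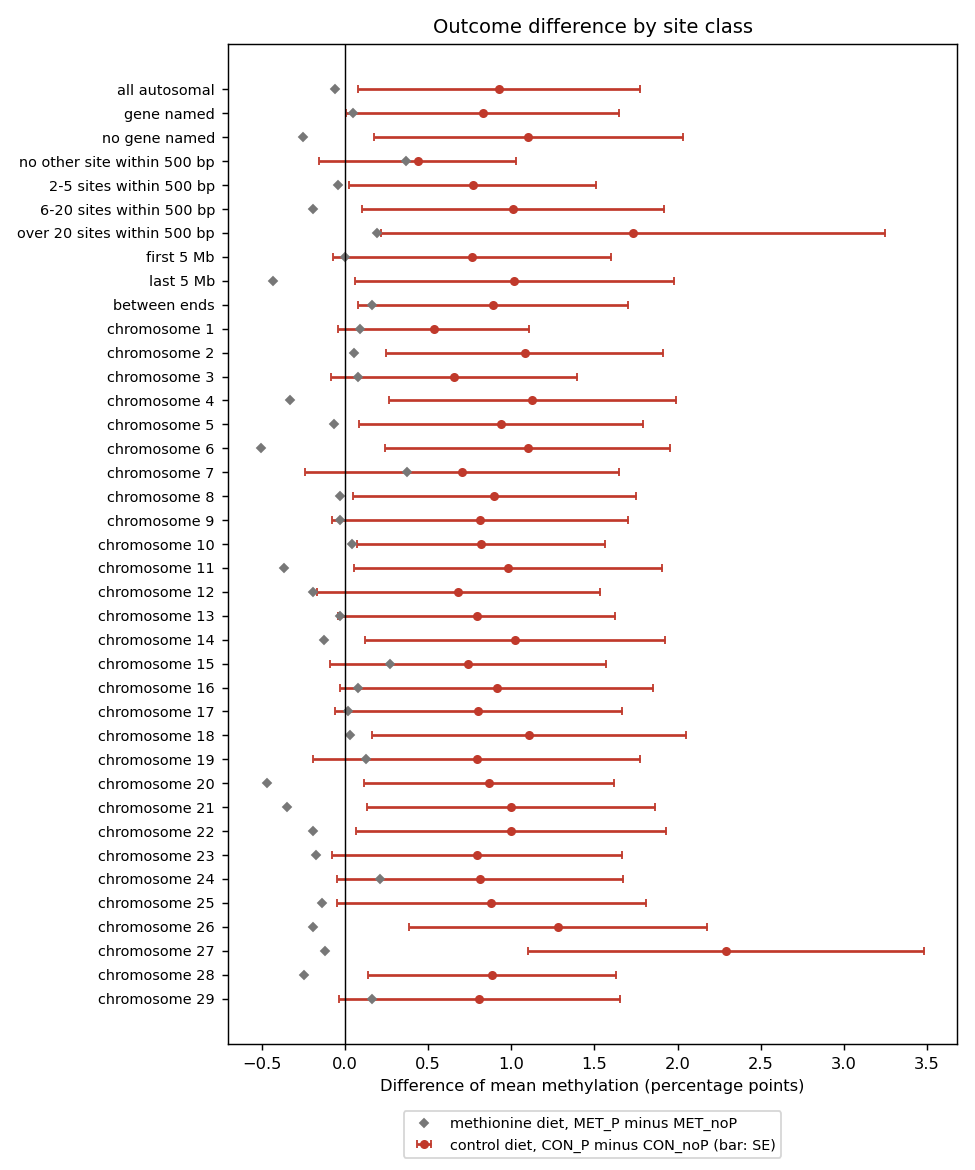
Difference of mean methylation between the outcomes in percentage points (horizontal axis) for all autosomal sites, the gene, density and position classes and the 29 autosomes, with CON_P minus CON_noP as red points with the standard error of the difference and MET_P minus MET_noP as grey diamonds. All red points lie right of 0, from 0.437 at sites without a neighbour to 2.29 on chromosome 27, whereas the grey points lie on both sides.

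No single CpG passed the adjusted threshold in the test used here. The study tested sites by logistic regression over replicates and did report differentially methylated CpGs in this comparison. Most of them were higher in CON_P, and many lay in the island on chromosome 27. The deposited percentages hold no read counts, and the test used here is a different one, so it does not repeat that of the study. With limma on M values, where M is log2 of the methylated over the unmethylated percent with 1 added to each, 0 autosomal sites (0%) had an adjusted p under 0.05, and 7622 of 189036 (4.03%) had an unadjusted p under 0.05. The lowest adjusted p was 0.181. Of the latter, 4907 (2.6% of all sites) were higher and 2715 (1.44%) lower in CON_P, a share of 64.4% higher, which was 55.8% once the libraries were centred to equal median M. Without CON_P replicate 4 there were 12040 such sites, also with 0 past the adjusted threshold. No overlap between the groups was seen at 3745 sites (1.98%), with CON_P above at 2308 (1.22%) and below at 1437 (0.76%). With labels placed at random, 4 against 4 libraries without ties separate with a probability of 0.0286. The share of sites was under this, and so were the shares of windows and genes given below.

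The direction of these 7622 sites varied with their methylation level. In this set, 83.8% of 463 sites of 20% to 40% were higher in CON_P, 76.5% of 289 at 40% to 60%, 74.7% of 454 at 60% to 80%, 61.9% of 5629 at 80% to 100% and 60.5% of 787 under 20%. Most of the 7622 sites belonged to the class of 80% to 100%, where 6.03% of the sites had such a p, against 1.73% to 2.31% in the other classes. The log2 scale stretches small differences close to 100%, and the spread between libraries too. The median absolute difference in that class was 2.07 percentage points. Whether the scale bears on the share of sites with such a p was not tested.

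In percentage points, the absolute difference between the group means had a median of 2.79 and was under 9.32 at 90% of the autosomal sites. It was over 20 percentage points at 1133 sites (0.599%), with 882 higher and 251 lower in CON_P, and over 30 at 75 sites. The groups did not overlap at 272 of the 1133 sites. Without CON_P replicate 4, 2953 sites were higher and 649 lower by over 20 percentage points.

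The largest non-overlapping differences included CpGs in MCM2 and ZAP70. At the MCM2 site (ENSBTAG00000014380, a subunit of the helicase that unwinds DNA for replication; chromosome 22, position 59905868), methylation was 94.9%, 100%, 92.3% and 73.3% in CON_P replicates 1 to 4 and 23.5%, 45.5%, 66.7% and 59.0% in CON_noP replicates 1 to 4. Every CON_P library was above every CON_noP library, and the means differed by 41.5 percentage points (log2 difference 3.98 ± 1.04 SE, limma adjusted p = 1). Its surroundings differed less, and 7 of the 13 other sites within 500 bp were higher in CON_P and their median difference was 0.7 percentage points. Between MET_P and MET_noP the site differed by -19.0 percentage points.

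At the ZAP70 site (ENSBTAG00000005892, a kinase of the T cell receptor; chromosome 11, position 3061076), methylation was 21.8%, 30.8%, 21.7% and 12.5% in CON_P and 64.7%, 47.8%, 41.0% and 74.2% in CON_noP. The groups did not overlap, and the means differed by -35.2 percentage points (log2 difference -2.29 ± 0.58 SE, limma adjusted p = 1). The adjacent position 3061077, taken as the same CpG on the opposite strand, read 34.0%, 36.0%, 33.3% and 11.1% in CON_P and 73.9%, 26.7%, 29.7% and 68.8% in CON_noP. There the groups overlapped and differed by -21.1 percentage points, with an unadjusted limma p of 0.117. Of the 13 other sites within 500 bp, 10 were lower in CON_P, with a median of -2.46 percentage points. Over the 31 measured sites of ZAP70 the difference was -3.04 percentage points.

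Sites outside named genes reached the same size. On chromosome 10 at position 7013408, CON_P read 73.8%, 80%, 90% and 100% and CON_noP 43.8%, 41.7%, 47.5% and 44.0%, a difference of 41.7 percentage points. The CON_noP libraries lay close together, and 10 of 13 neighbours within 500 bp were higher in CON_P, with a median of 5.57 percentage points. On chromosome 2 at position 134511035, the difference was 41.0 percentage points (73.5% ± 10.7 against 32.6% ± 12.8), and both neighbours were higher in CON_P too, with a median of 26.6 percentage points. On chromosome 12 at position 10974141, CON_P had 22.9% ± 19.3 and CON_noP 70.1% ± 13.7, the most negative difference of any autosomal site (-47.2 percentage points), while the 3 neighbours had a median of -4.57. The positions on chromosome 6 at 115099436 and on chromosome 29 at 45409256 differed by 40.5 and -33.3 percentage points. The LMTK3, RBM19 and SYT2 positions that complete the list differed by 41.0, -35.8 and -32.2 percentage points. They had 7 of 13, 3 of 5 and 0 of 1 neighbours on their side. By its logistic regression, the study lists these genes as differentially methylated in this comparison, with differences of the same size. Over the 10 positions described, the adjusted limma p was 0.557 or more, so the tests differ on these genes.

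CpGs measured on both strands gave a direct view of how far a difference at a single cytosine repeats. Methylation of a CpG is usually symmetrical, as the maintenance methyltransferase copies the mark to the new strand after replication. Adjacent measured positions were taken as the strands of a CpG, without use of the sequence. Where CpGs adjoin, some pairs may therefore join cytosines of neighbouring CpGs. Within a library, the strands of the 8498 CpGs measured on both differed by a median of 4.51 to 6.67 percentage points. The difference between CON_P and CON_noP had the same sign on both strands at 58.3% of them, and across these CpGs the strand differences were correlated with r = 0.256 (a description, since all CpGs share the same 8 libraries). The groups did not overlap on at least 1 strand at 317 CpGs (3.73%), and on both strands, in the same direction, at 3 of 8498 (0.0353%), which is 0.946% of the 317. The sign was the same on both strands at 194 of the 317 (61.2%). Of 88 CpGs with a difference over 20 percentage points on either strand, 69 had the same sign on both, and 2 were past 20 percentage points on both in the same direction.

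A CpG in PCDHAC2 (ENSBTAG00000053546, a cell adhesion protein of the protocadherin alpha cluster; chromosome 7, position 52054217) was 1 of these 3. Averaged over the strands it had 12.2%, 11.3%, 12.7% and 13.1% in CON_P and 24.6%, 21.1%, 19.2% and 24.7% in CON_noP, a difference of -10.1 percentage points. The CON_P libraries lay close together, and the strands differed by -8.86 and -11.3 percentage points. The remaining CpGs of the 3, on chromosome 18 at 59225993 and 59225473, lie in the island that the study named on that chromosome. Over the strands, they had 9.32% ± 2.84 in CON_P and 4.53% ± 1.83 in CON_noP, and 8.76% ± 2.21 and 4.50% ± 1.16. Between MET_P and MET_noP, the PCDHAC2 CpG differed by 1.19 percentage points and those on chromosome 18 by 1.96 and -2.05.

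**Figure D3:**
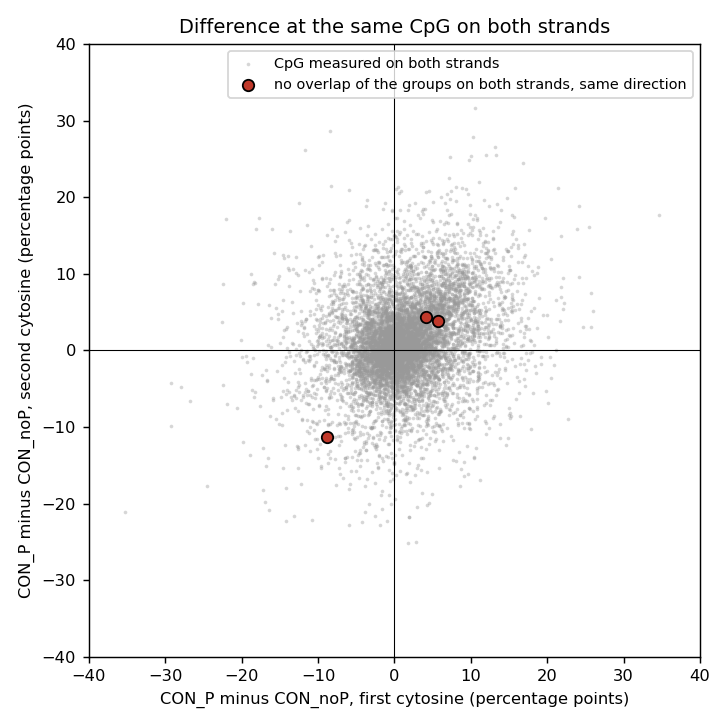
Difference CON_P minus CON_noP in percentage points at the cytosine with the lower coordinate (horizontal axis) and at its partner on the other strand (vertical axis) for 8498 CpGs (grey), with the 3 CpGs whose groups did not overlap on both strands in red. The cloud is wide around 0 with a weak slope (r = 0.256), and the red point at the lower left is the CpG in PCDHAC2.

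Windows of 1 kb with at least 3 sites averaged neighbouring CpGs without use of gene names. With limma, 0 of 25579 autosomal windows (0%) had an adjusted p under 0.05 (lowest 0.715), and 938 (3.67%) had an unadjusted p under 0.05. Of these 938, 662 (2.59%) were higher and 276 (1.08%) lower in CON_P, a share of 70.6% higher, and 56.4% after centring. Without CON_P replicate 4 there were 1745. The groups did not overlap in 569 windows (2.22%), 367 higher (1.43%) and 202 lower (0.79%) in CON_P.

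The window with the lowest p lay in ZFHX3, a homeobox zinc finger transcription factor (chromosome 18, 6 sites from 38200869 to 38200932). It had 97.9%, 96.3%, 96.7% and 96.7% in CON_P and 92.3%, 88.0%, 90.3% and 89.6% in CON_noP, so the groups were separate, with a log2 difference of 2.08 ± 0.33 SE (limma adjusted p = 0.715). A window in PSD3, an exchange factor for small GTPases (chromosome 27, 10 sites from 38936950 to 38936997), had 98.2% ± 0.879 and 93.0% ± 1.65. A window of 3 sites in EYA2, a transcriptional coactivator, differed by 7.86 percentage points. The windows in ENSBTAG00000053841 and ZNF428 complete the 5 lowest p-values in this direction, with 6.62 and 4.36 percentage points. In the opposite direction, a window in ARHGEF19, an activator of small GTPases (chromosome 2, 3 sites from 135905801 to 135905822), had 79.2%, 90.4%, 86.5% and 78.6% in CON_P and 94.7%, 93.1%, 90.8% and 97.6% in CON_noP. These groups came close but did not overlap. Windows of 3 sites in GAB2, a signalling adaptor downstream of growth factor receptors, and in LRRC1 differed by -6.17 and -6.19 percentage points, and those without a named gene on chromosomes 15 and 29 by -4.52 and -11.4. Most of these windows were above 90% in at least 1 group, where sites at exactly 100% are frequent, and the share of such sites differed between libraries as given above. Between MET_P and MET_noP, the ZFHX3, PSD3 and EYA2 windows differed by -1.92, -2.10 and -7.55 percentage points.

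At the gene level, the mean of M over the sites of a gene was tested for 8370 autosomal genes with at least 2 sites. With limma, 0 genes (0%) had an adjusted p under 0.05 (lowest 0.937) and 331 (3.95%) had an unadjusted p under 0.05, of which 233 were higher (2.78%) and 98 lower (1.17%) in CON_P. Without CON_P replicate 4 there were 557, and the lowest adjusted p was 0.0694. After centring, 54.1% of the genes at an unadjusted p under 0.05 were higher in CON_P, against 70.4% before. The groups did not overlap in 164 genes (1.96%), 105 higher (1.25%) and 59 lower (0.705%). Among the 5464 of them with at least 5 sites, 158 (2.89%) had an unadjusted p under 0.05, 133 higher (2.43%) and 25 lower (0.458%), and 103 (1.89%) did not overlap, 78 higher (1.43%) and 25 lower (0.458%).

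The genes named next were picked for low p among non-overlapping genes with at least 5 sites, up to 8 in each direction, so their separation is a description and not a finding. CX3CL1 (ENSBTAG00000024869), a membrane-bound chemokine that attracts leukocytes, had 6 sites on chromosome 18 between 25383247 and 25387690. It had 16.98%, 28.3%, 19.9% and 12.5% in CON_P and 10.2%, 6.92%, 7.21% and 7.45% in CON_noP. All 6 sites were higher in CON_P, and the mean was higher by 11.5 percentage points (log2 difference 1.40 ± 0.32 SE, limma adjusted p = 0.999).

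The other 6 genes described that were higher in CON_P differed by 3.12 to 5.69 percentage points. ENSBTAG00000053841, with no symbol in the table, had 78.0% ± 1.92 in CON_P and 72.3% ± 2.59 in CON_noP over 9 sites on chromosome 21, 7 of which form the window named above. GPR52, an orphan G protein-coupled receptor, SLC22A8, an organic anion transporter, RPAP1, an RNA polymerase II-associated protein, and ANAPC1, a subunit of the anaphase-promoting complex, were nearly fully methylated in CON_P, at 96.8% to 97.7%, and at 92.5% to 94.5% in CON_noP. ZGPAT, a zinc finger repressor of transcription, had 80.6% ± 1.33 and 77.4% ± 0.643.

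Among the 8 genes that were lower in CON_P, RND2 and NRXN3 had the largest differences. RND2, a small GTPase, had 9 sites on chromosome 19 between 43052343 and 43052892, with 23.8%, 32.8%, 22.5% and 30.9% in CON_P and 40.7%, 34.9%, 37.6% and 33.1% in CON_noP. The groups came close but did not overlap, and the means differed by -9.07 percentage points (log2 difference -0.58 ± 0.26 SE). NRXN3, a presynaptic adhesion molecule, had 89.8%, 88.5%, 77.0% and 91.3% in CON_P and 93.8% to 95.3% in CON_noP over 8 sites on chromosome 10, and CON_P was lower at every one of them. GRIA4, a glutamate receptor subunit, DAGLB, an endocannabinoid-producing lipase, and C11orf53 differed by -3.93, -4.93 and -5.32 percentage points. EGFLAM, an extracellular matrix protein, SCRT1, a repressor of the Snail family, and THYN1 differed by -2.86, -2.21 and -2.85. For SCRT1 and THYN1 the unadjusted limma p was 0.0508 and 0.0618, and over the genes described the adjusted p was 0.975 or more.

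**Figure D4:**
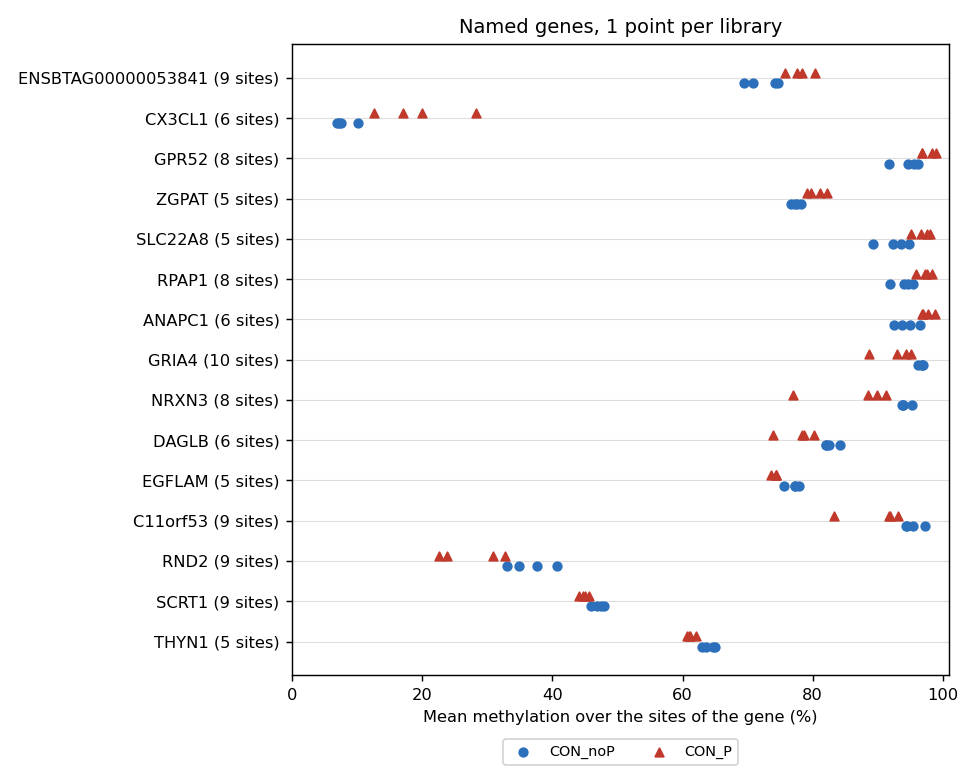
Mean methylation over the sites of a gene in percent (horizontal axis) for the 15 genes described, with 1 point per library, CON_noP as blue circles and CON_P as red triangles. Genes higher in CON_P stand above and genes lower in CON_P below, and most points lie above 60%, apart from CX3CL1, RND2 and SCRT1.

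In cows on RPM, 7 of these 15 genes differed in the same direction. They were 2 of the 7 genes higher in CON_P and 5 of the 8 lower ones, among them EGFLAM, DAGLB and GRIA4 with -1.95, -1.39 and -1.10 percentage points. CX3CL1 differed by -5.42 percentage points between MET_P and MET_noP and RPAP1 by -0.592, both opposite to the control diet. The limma test of the difference between the diets gave an unadjusted p of 0.000321 and 0.000336 for them, with an adjusted p of 0.6 for each over all genes. The genes had been picked for their value on the control diet, so this test is not independent of the choice. Over all 8370 autosomal genes, 0 (0%) had an adjusted p under 0.05 for this interaction and 464 (5.54%) an unadjusted p under 0.05.

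The direction at single sites was also set beside that on RPM. Of the 3745 sites without overlap between CON_P and CON_noP, 1689 (45.1%) had the same sign between MET_P and MET_noP. Sites above in CON_P were higher in MET_P in 47.1% of cases, and sites below in CON_P were lower in MET_P in 41.8%. Of all autosomal sites, 51.1% were higher in MET_P, so a lower value in MET_P was the less frequent direction there too. Of the 3745 sites, 102 (2.72%) were also without overlap between MET_P and MET_noP, 38 in the same and 64 in the opposite direction, beside 2.83% of all autosomal sites without overlap on RPM.

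Genes of endometrial pathways were described by lists, each beside the value over all genes. Of the 8370 autosomal genes, 4960 (59.3%) had a higher mean percentage in CON_P, with a median difference of 0.44 percentage points. In each list, 0 genes had an adjusted p under 0.05 with limma. The lists therefore show directions only.

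Among these lists, that of prostaglandin genes had the highest share in one direction in value. The lists were chosen with earlier results of these data known, and the prostaglandin genes described after the values were seen. This rank is therefore a description only. Of the 27 prostaglandin genes listed, 17 were tested, and 15 of these (88.2%) had a higher mean percentage in CON_P, beside 59.3% of all genes. The median difference of the 17 was 2.29 percentage points. On the log2 scale 14 of the 17 were higher. With any library left out, 12 to 16 of the 17 were higher. Between MET_P and MET_noP, 8 of the 17 were higher, beside 4606 of all 8370 genes (55.0%). None of the 17 had an unadjusted limma p under 0.05 (lowest 0.0584), where 3.95% of all genes did, and the groups overlapped in all of them.

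Among the receptors, PTGER1 (the EP1 receptor of prostaglandin E) had 9 sites on chromosome 7 between 11302350 and 11302389, with 43.8%, 53.8%, 34.9% and 17.9% in CON_P and 19.1%, 10.1%, 22.2% and 33.8% in CON_noP. Of the CON_P libraries, replicates 1 to 3 were above all CON_noP libraries and replicate 4 was below all but 1. TBXA2R, the thromboxane receptor, had 82.9%, 71.4%, 74.8% and 55.6% in CON_P and 50.0%, 58.1%, 64.4% and 69.0% in CON_noP, with replicate 4 again the lowest of CON_P. PTGDR2 and PTGIR, receptors of prostaglandin D and of prostacyclin, were 7.47 and 6.46 percentage points higher. The receptors PTGER3, PTGER4 and PTGFR differed by 0.191, 0.0953 and 0.714 percentage points, and the sign of each on the log2 scale turned with at least 1 library left out.

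Among the enzymes, PTGES, which makes prostaglandin E, had 84.3%, 65.2%, 74.3% and 52.6% in CON_P and 49.0%, 69.5%, 62.9% and 59.0% in CON_noP over 5 sites. PTGS1, a cyclooxygenase at the head of the pathway, went the other way, with 67.9%, 37.5%, 44.1% and 83.1% in CON_P and 89.3%, 49.5%, 71.3% and 66.4% in CON_noP over 4 sites. The groups overlapped in both genes. PTGIS, the prostacyclin synthase, differed by -1.66 percentage points, and PTGDS, a prostaglandin D synthase, by 4.06. AKR1B1, a reductase with prostaglandin F synthase activity in the bovine endometrium, had 60.9%, 60.7%, 60.7% and 57.5% in CON_P and 57.0% to 58.9% in CON_noP. The transporter SLCO2A1, which takes up prostaglandins, was higher by 6.76 percentage points, with 18.3% to 35.5% in CON_P and 8.65% to 39.7% in CON_noP.

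**Figure D5:**
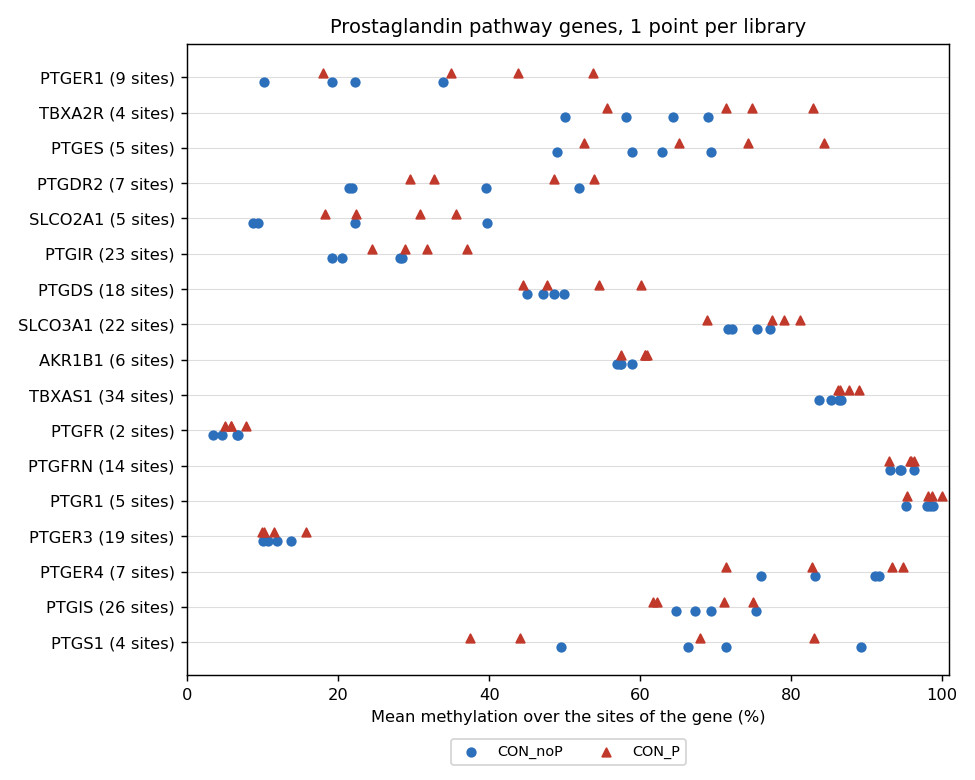
Mean methylation over the sites of a gene in percent (horizontal axis) for the 17 prostaglandin genes tested, sorted by their difference, with 1 point per library, CON_noP as blue circles and CON_P as red triangles. Circles and triangles overlap in every gene, also in PTGER1 (17.9% to 53.8% in CON_P and 10.1% to 33.8% in CON_noP).

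The WNT pathway, which shapes uterine glands, had 46 of 61 tested genes (75.4%) higher in CON_P, with a median of 0.911 percentage points, and 37 to 48 with any library left out. It had 0 genes at an unadjusted limma p under 0.05 (lowest 0.0542, WNT9A), where 3.95% of all genes had one. LGR4, a receptor for R-spondins, had 34.6%, 28.6%, 22.2% and 13.8% in CON_P and 15.1% to 21.5% in CON_noP, with CON_P replicate 1 the highest and CON_P replicate 4 the lowest of all libraries. CSNK1E, a kinase of the pathway, was the single gene of the list without overlap (1.96% of all genes), with 60.2% ± 0.562 in CON_P and 57.8% ± 2.14 in CON_noP. On RPM, 35 of the 61 genes (57.4%) were higher in MET_P, beside 55.0% of all genes.

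Steroid receptors and their coregulators had 17 of 29 genes higher in CON_P (58.6%, beside 59.3% of all genes), with a median of 1.63 percentage points. The median was 0.263 without CON_P replicate 2, 0.504 without CON_noP replicate 2, 0.650 without CON_noP replicate 4 and 0.850 without CON_P replicate 1. Of the 29 genes, 2 (6.90%) had an unadjusted limma p under 0.05, beside 3.95% of all genes. NCOA3, a coactivator of nuclear receptors, had 98.9%, 98.7%, 97.4% and 96.5% in CON_P and 92.7%, 88.5%, 90.9% and 96.7% in CON_noP over 4 sites on chromosome 13 (log2 difference 1.74 ± 0.44 SE, at an unadjusted limma p of 0.00235 and an adjusted p of 0.999). CON_P replicate 4 lay just under CON_noP replicate 4. PAQR8, a membrane progestin receptor, had 74.6%, 72.6%, 74.6% and 75.0% in CON_P and 70.9% to 73.0% in CON_noP over 8 sites, at an unadjusted limma p of 0.0191. NCOR1, a corepressor, had 29 sites, and its groups did not overlap, at 82.8% ± 1.42 and 79.9% ± 1.85. It was the only gene of this list without overlap, beside 1.96% of all genes. OXTR, the oxytocin receptor, was higher by 6.02 percentage points with overlapping groups.

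Interferon and innate immune genes had 19 of 35 higher in CON_P (54.3%, beside 59.3% of all genes). Of the 35 genes, 3 (8.57%) had an unadjusted limma p under 0.05, beside 3.95% of all genes. The receptor subunits IFNGR2 and IL17RA and the cytokine IL10 were higher in CON_P at an unadjusted limma p of 0.00324, 0.0321 and 0.0070, in that order of IFNGR2, IL17RA and IL10, by 5.74, 4.74 and 5.597 percentage points. IL17RA, the receptor subunit for interleukin 17, had 89.2%, 86.3%, 88.0% and 89.4% in CON_P and 82.6%, 83.3%, 83.8% and 84.2% in CON_noP over 7 sites on chromosome 5. It was the only gene of the interferon list without overlap, beside 1.96% of all genes. On RPM it differed by -3.37 percentage points and IL10 by -13.2. IRF9, a mediator of the interferon signal, differed by -12.7 percentage points, with overlapping groups.

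In the other lists, between 59.2% and 66.7% of the genes were higher in CON_P. Insulin-like growth factor genes had 12 of 18 higher with a median of 0.482 percentage points, homeobox and uterine development genes 27 of 41 with 0.732, and matrix and integrin genes 42 of 71 with 0.651. On the log2 scale, 9 of 18, 28 of 41 and 43 of 71 were higher in the same order. Without CON_P replicate 1, the first of these lists had 7 of 18 higher with a median of -0.270 and the second 19 of 41 with -0.241. The median of the matrix list was 0.0608 without CON_noP replicate 2. Genes of the methionine cycle and the DNA methylation machinery had 14 of 22 higher with a median of 0.361, which was 0.00263 without CON_noP replicate 3. MTHFD1L, a mitochondrial folate enzyme, had the lowest p among the latter, with an unadjusted limma p of 0.107. Imprinted genes, at which the parental alleles differ in methylation, had 12 of 18 higher with a median of 0.959, and 0.0795 without CON_P replicate 1. In this list ASCL2, a transcription factor of the placental lineage, had 8.27%, 11.8%, 9% and 15.01% in CON_P and 4.00%, 4.26%, 9.60% and 6.56% in CON_noP over 2 sites, at an unadjusted limma p of 0.027. It was the only gene of the 18 (5.56%) with such a p under 0.05, beside 3.95% of all genes.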

How the data were processed

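RRBS libraries of endometrial cytobrush DNA were cut with MspI and treated with bisulfite. Reads were trimmed by the authors (Trim Galore), mapped with Bismark on ARS-UCD1.2 and merged by library (SAMtools), and they quantified each cytosine with at least 10 reads in SeqMonk. The deposited values are percent methylation per position and library, without read counts or normalization between libraries, so depth per position is unknown. MspI fragments oversample CpG-dense DNA.

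Each column was assigned by the group name above it. M = log2((percent + 1)/(100 - percent + 1)) was tested for sites, genes with at least 2 sites and 1 kb windows with at least 3 sites with limma 3.58.1 in R 4.3.3 on the 8 libraries, and for the diet interaction on 16. Benjamini-Hochberg adjustment covered the whole table, including chromosome X (199395 sites, 8719 genes, 26470 windows), with a threshold of 0.05. Class means and library deviations entered two-sided exact permutation tests over all 70 splits of 8 libraries. The methods call the libraries biological replicates, but how cows map to libraries is not clear, so p-values measure the spread between libraries. Python 3.11.15, numpy 2.4.6, pandas 2.3.3 and matplotlib 3.10.9 were used.

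By rule, the text names up to 8 genes in each direction by lowest p among non-overlapping autosomal genes with at least 5 sites, list members at an unadjusted p under 0.05 (up to 3 for each list), 5 sites in each direction by largest non-overlapping difference, 5 windows in each direction by lowest p and up to 3 strand pairs in each direction. The comparison, lists and alternatives were chosen with earlier results of these data known. MUC1, ELF3, the prostaglandin genes, WNT9A, LGR4, CSNK1E, NCOR1, OXTR, IRF9, MTHFD1L and the exact test between diets were chosen after the values were seen. Alternatives were untransformed percentages, an offset of 0.1, moderation with trend, all libraries in 1 model, centring, sets of library numbers as a block, merged strands, sites of 10% to 90%, at least 5 sites, no CpG islands, medians and each library left out. Gene coordinates are the first and last measured site. Exons, introns, promoters and sequences were not analysed here. A gene that the rule picks is not reported here.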

Additional observations from a re-analysis of the deposited data

Results flagged for a closer look

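Of 212 sets of 4 libraries examined for a library far from the others of its group (Dixon's test), 10 had one, where chance alone gives about 1 in 20. In CON_noP these were replicate 3 for sites without a neighbour (38.7% against 37.2% to 37.5%) and for NRXN3 (95.3% against 93.8% to 93.9%), replicate 1 for CX3CL1 (10.2% against 6.92% to 7.45%) and for the LMTK3 site on chromosome 18 (57.9% against 44.8% to 46.4%), and replicate 4 for the LRRC1 window (98.5% against 100%). In CON_P, replicate 2 stood apart for EGFLAM (73.6% against 74.3%), C11orf53 (83.3% against 91.8% to 93.1%) and PAQR8 (72.6% against 74.6% to 75.0%), replicate 4 for AKR1B1 (57.5% against 60.7% to 60.9%) and replicate 1 for the ZNF428 window (99.1% against 100%).

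Outside the autosomes, the 13 mitochondrial sites had a mean of 5.54% over the 8 libraries, with library means of 4.25% to 6.25%. The authors' filter kept positions above zero only, so this is not a level of the mitochondrial genome. On chromosome X, 10346 sites had a mean of 41.0% in CON_P (39.1% to 44.0%) and 40.2% in CON_noP (37.5% to 41.9%), a difference of 0.717 percentage points with overlapping libraries.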

How the results depend on the processing

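Counts of autosomal sites past the adjusted threshold of limma were 0 under every alternative except an offset of 0.1 percentage points, with 227, and all 16 libraries in 1 model, with 1. For genes and windows they stayed 0 throughout. At an unadjusted p under 0.05, sites of 10% to 90% gave 3392, a fit on genes and on windows with at least 5 sites alone gave 210 and 418, and the diet interaction with at least 5 sites 289, each over fewer features. The 158 genes with at least 5 sites given above are counted in the fit on all genes, where the moderation of the variances is estimated over all of them. With 1 library left out the counts ranged from 7697 to 12040 sites, 296 to 557 genes and 831 to 1745 windows, the highest without CON_P replicate 4. The difference in library deviation then ranged from 0.662 to 1.14 percentage points, past the threshold without CON_noP replicate 1 or 2. The class of 80% to 100% ranged from -0.0607 to 0.422. With medians in place of means, chromosomes 1 and 12 had -0.205 and -0.0782. The genes and sites named by rule were picked for groups without overlap and the windows for low p. Their direction could therefore hardly turn with a library left out, and its constancy is no evidence of stability. Of 960 alternative values for 61 named features, 9 changed direction, all in small differences of prostaglandin genes, which were not picked that way. These were PTGR1 (log2 difference -0.091 to 0.619 with 1 library left out), PTGER4 (-0.314 to 0.822), PTGFR (-0.0185 to 0.319) and PTGER3 (-0.185 to 0.0825, and 0.191 on percentages). For PTGR1 this was -0.00668 without CON_P replicate 2, for PTGER4 -0.111 without CON_noP replicate 3, and for PTGER3 0.0702 and 0.0488 without CON_noP replicate 1 and CON_P replicate 3. The cause was not tested. No paired analysis by the replicate numbers of the labels was possible because the columns do not carry them. Sets of consecutive library numbers as a replicate block gave 7639 sites, 337 genes and 907 windows at an unadjusted p under 0.05 and 0 past the adjusted threshold, and same-set libraries did not deviate together (correlations of -0.0515, -0.00614, 0.00206 and 0.00496). The unknown depth per position limits single sites most.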
